A study of Danio rerio with 12 samples.

Results

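The collagen genes of the zebrafish were taken as every Ensembl gene in the count tables whose symbol has the form of a collagen chain, that is col, a type number, the letter a and a chain number. This gave 57 of 31261 genes. A symbol was found for 28223 of the 31261 genes, so collagens without a symbol were not included. By the type in the symbol, 15 were fibrillar collagens, 12 belonged to basement membranes and their zone, 12 were FACIT collagens (fibril-associated collagens with interrupted triple helices), 9 were beaded-filament collagens, 5 were network-forming collagens of cartilage, bone and vessels, and 4 were transmembrane collagens. All 57 had at least 1 count in every library and entered every comparison. The one with the fewest counts was COL10A1 (ENSDARG00000101535), with 4 to 35 counts per library. Symbols are written as the names table gives them, in capitals or lower case, and where duplicated genes (ohnologs) carry the same symbol the Ensembl identifier is added.

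Total RNA was sequenced from pools of whole larvae at 6 days post fertilization (dpf) in 4 lines, with 3 libraries each. TL, the wild-type line, served as control, and the other lines were panx1a-/-, panx1b-/- and a double knock-out in which both are lost. The genes panx1a and panx1b are ohnologs that encode pannexin1, a membrane channel permeable to ATP. All larvae were untreated and in light by the sample labels, and the knock-outs were made by TALEN genome editing. Each genotype is a single line, so genotype and line background cannot be told apart in any result given here. The comparisons asked which collagen transcripts differed between these lines.

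Collagens are trimers of alpha chains wound into a triple helix. Fibrillar types carry the tension in bone, skin, fin and cartilage, FACIT types decorate the fibrils, type IV forms the sheet of basement membranes, and types VII and XVII anchor the epidermis to the dermis. In the zebrafish larva collagens are made by chondrocytes, osteoblasts, notochord cells, fibroblasts and, in the skin, also by epidermal cells, and together with the actinodins they form the rods that stiffen the fin fold. Each library held whole larvae, so fewer cells of a type and less RNA per cell cannot be told apart in any result given here.

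Library totals were 20581029 to 29259122 counts. The library pair of the double knock-out replicates 2 and 3 was the most alike, its chi-square per degree of freedom being 2.93 against 10.7 to 25.9 for the other pairs within a line, and all libraries were kept. Whether these 2 libraries came from separate pools was not tested. If they did not, the SEs and p-values of the comparisons with the double knock-out would be too small. The names table gives the symbol PANX1 to both ohnologs without saying which is panx1a. The first, ENSDARG00000014910, had 123 to 154 counts in TL, 160 to 226 in panx1a-/-, 128 to 163 in panx1b-/- and 79 to 107 in the double knock-out. The second, ENSDARG00000025285, had 249 to 399 counts in TL, 82 to 123 in panx1a-/-, 200 to 224 in panx1b-/- and 88 to 98 in the double knock-out. The first overlapped with TL in panx1b-/- and the second lay below TL in every knock-out line, so these counts do not check the panx1b-/- label. Every gene matched by symbol to the fixed marker lists of cartilage, osteoblasts, fin fold, epidermis, tendon, notochord, muscle, neurons and liver had counts in at least 1 library. The planned markers comp, and4, shha, mep1a, mylpf, myhz1 and opn1sw1 were not matched and are not part of these lists.

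Collagens were a larger part of the library in TL and panx1b-/- than in the double knock-out. The 57 genes took 1.58, 1.31 and 1.56% of all counts in the TL libraries and 1.78, 1.46 and 1.56% in panx1b-/-. They took 1.09, 1.33 and 1.28% in panx1a-/- and 1.20, 1.23 and 1.19% in the double knock-out. The 3 double knock-out libraries lay below all TL and all panx1b-/- libraries, whereas panx1a-/- overlapped with TL.

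**Figure D1:**
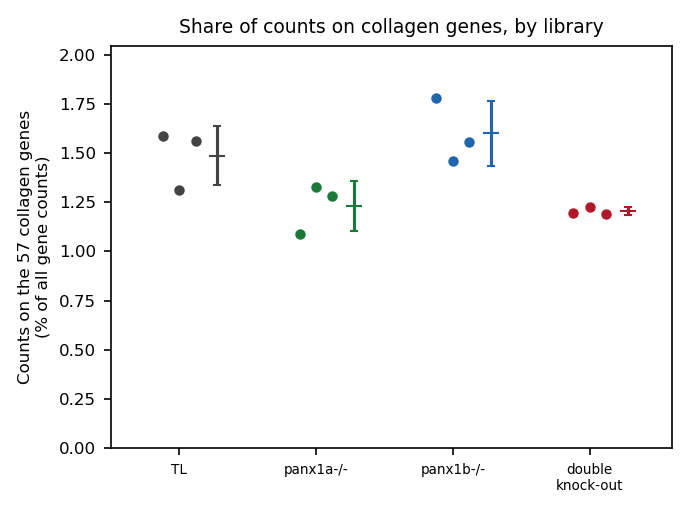
Share of all gene counts (%) that fell on the 57 collagen genes in each of the 12 libraries; points are libraries, bars the mean and SD of 3. The double knock-out libraries sit between 1.19 and 1.23%, below the TL libraries at 1.31 to 1.58%.

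Collagen levels moved together between libraries of the same line. Of the 3 TL libraries, replicate 2 held the lowest level in 46 of the 57 collagens (80.7%), against 44.8% of the 21110 genes whose mean reached 1 CPM (counts scaled to library size). The median log2 deviation of the collagens from the TL mean was −0.23 in that library, 0.13 in replicate 1 and 0.10 in replicate 3. In panx1a-/- the lowest library was replicate 1 for 42 collagens (73.7%), against 36.9% of the 21110 genes. In panx1b-/- it was replicate 3 for 36 collagens (63.2%), against 37.0%. In the double knock-out it was replicate 3 for 28 collagens (49.1%), against 29.1%. Summed tissue markers differed between the same libraries. The tendon and fibroblast markers summed to 396, 274 and 361 CPM in TL replicates 1 to 3, and the cartilage markers to 692, 605 and 749 CPM. In panx1a-/- the cartilage markers summed to 479 CPM in replicate 1 and to 661 and 667 CPM in the others. In panx1b-/- they summed to 567, 700 and 600 CPM, so that their lowest library was replicate 1 and not replicate 3. Muscle markers summed to 17636, 14188 and 20325 CPM in TL, 14513, 17652 and 17609 CPM in panx1a-/- and 15013, 16911 and 10551 CPM in panx1b-/-, lowest in the library that was lowest in collagens in each of the 3 lines. Markers of neurons and retina went the other way in TL, with 863, 1127 and 985 CPM, and in panx1b-/-, with 853, 1092 and 1128 CPM. In panx1a-/- they were lowest in replicate 1, with 849, 929 and 1091 CPM. In TL the epidermal markers (11236, 11966 and 13091 CPM) and the fin fold markers (797, 802 and 876 CPM) were lowest in replicate 1. The epidermal markers were lowest in replicate 3 in panx1b-/-, and the fin fold markers in replicate 1 in panx1a-/-, as the collagens were. Unlike the collagens, the epidermal markers were lowest in replicate 3 in panx1a-/- (14106, 15823 and 11976 CPM). The fin fold markers were lowest in replicate 2 in panx1b-/- (1043, 941 and 971 CPM), also unlike the collagens. The part of these differences in the results was not tested.

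A collagen was taken as regulated when edgeR's quasi-likelihood test gave a Benjamini-Hochberg adjusted p under 0.05 together with a p under 0.001. Against TL, no collagen rose and 3 fell in panx1a-/-, where 2.29% of all genes tested rose and 2.89% fell. In panx1b-/- 2 rose and none fell, at 2.8% and 3.16% of all genes. At an unadjusted p under 0.05, 2 collagens were higher and 24 lower in panx1a-/-, and 8 higher and 7 lower in panx1b-/-. Together these were 26 and 15 of 57, beside 5875 of 24987 and 6266 of 24860 genes tested. Among collagens DESeq2 called 0 rises and 9 falls in panx1a-/-, and 3 of each in panx1b-/-. The shares of all genes called by DESeq2 are not given here. In the double knock-out 1 rose and 8 fell, at 2.81% and 5.28% of all genes. At an unadjusted p under 0.05, 2 collagens were higher and 35 lower there, and DESeq2 called 1 rise and 15 falls. Together 37 of 57 collagens had such a p, beside 7994 of 24896 genes tested. With all libraries, the 8 of 57 collagens that fell past both cut-offs exceeded the background share of 5.28%. That background held every gene tested, whatever its level, and the count of 8 changed with single libraries, as given below. The median log2 fold change of the 57 collagens was −0.26 in panx1a-/-, −0.03 in panx1b-/- and −0.37 in the double knock-out, beside medians of −0.01, 0.01 and 0.00 over all genes. The sign was negative for 47, 29 and 50 of the 57. The 3 comparisons share the TL libraries, so these directions are not independent of each other.

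The number of collagens that passed changed with single libraries. Without TL replicate 2, 30 fell in the double knock-out (median −0.47), 10 in panx1a-/- (median −0.35) and 3 in panx1b-/-. Without TL replicate 3, double knock-out replicate 2 or double knock-out replicate 3, the count of 8 became 3, 4 and 3. In panx1a-/- the count of 3 became 1 without TL replicate 1, TL replicate 3 or panx1a-/- replicate 3, and 6 without panx1a-/- replicate 2. The shares of all genes called in these fits are not given here, so these counts cannot be set against a background.

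**Figure D2:**
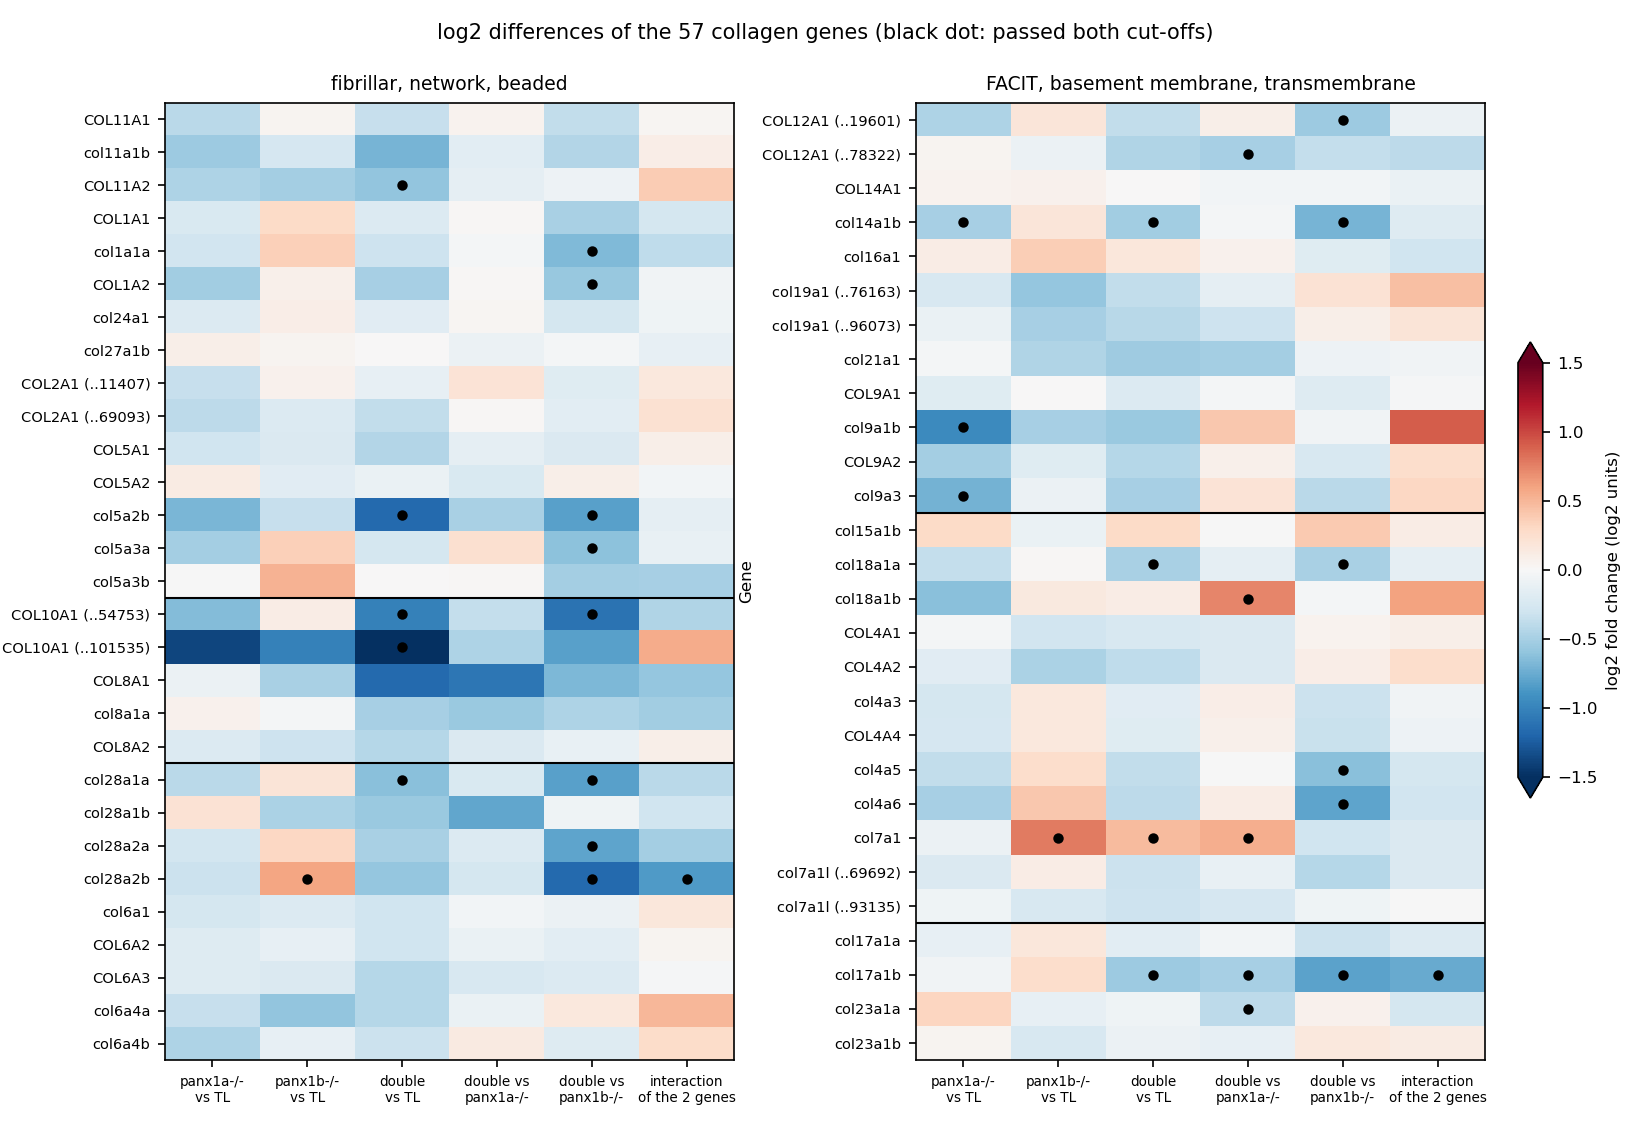
Log2 fold changes (colour, log2 units, limited to ±1.5) of the 57 collagen genes in rows, grouped by class, for 5 comparisons between lines and the interaction in columns; black dots mark regulated genes, and the digits in brackets are the last digits of the Ensembl identifier. The columns of panx1a-/- and the double knock-out against TL are mostly blue (47 and 50 of 57 negative), the column of panx1b-/- is mixed (29 negative), and the column of the double knock-out against panx1b-/- holds 14 dots, all negative.

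Type I collagen is the main collagen of bone, skin and tendon and is built from the chains of col1a1a, COL1A1 and COL1A2. COL1A2 (ENSDARG00000020007) stood at 1715, 1262 and 1731 CPM in TL, 943, 1220 and 1117 CPM in panx1a-/-, 1870, 1484 and 1600 CPM in panx1b-/- and 1188, 1082 and 1051 CPM in the double knock-out. All libraries of panx1a-/- and the double knock-out lay below all TL libraries, and panx1b-/- overlapped with TL. The log2 fold changes against TL were −0.52 ± 0.15 (SE) in panx1a-/- (edgeR adjusted p = 0.0564) and −0.50 ± 0.13 in the double knock-out (edgeR adjusted p = 0.0243), and neither passed both cut-offs. For col1a1a (ENSDARG00000012405) the levels were 1791, 1713 and 2069 CPM in TL, 1281, 1606 and 1682 CPM in panx1a-/-, 2715, 2096 and 2326 CPM in panx1b-/- and 1527, 1477 and 1487 CPM in the double knock-out. The panx1b-/- libraries were all above TL and the other mutant libraries all below it, with differences from TL of 0.36 ± 0.14, −0.29 ± 0.14 and −0.31 ± 0.11 on the log2 scale that did not pass. COL1A1 (ENSDARG00000035809) ranged from 1214 to 1690 CPM in TL and overlapped with TL in every line.

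Type V collagen controls the width of type I fibrils. Its chain col5a2b (ENSDARG00000024847) stood at 18.7, 14.7 and 20.8 CPM in TL, 7.97, 16.4 and 9.13 CPM in panx1a-/-, 16.3, 15.3 and 10.9 CPM in panx1b-/- and 9.21, 7.09 and 7.74 CPM in the double knock-out. The double knock-out lay below all TL and all panx1b-/- libraries, and both single lines overlapped with TL. The log2 fold change in the double knock-out was −1.17 ± 0.14, the largest fall among the fibrillar collagens (edgeR adjusted p = 0.000543), and col5a2b stayed regulated with each library left out in turn. COL5A2, the other alpha 2 chain, stood at 418, 292 and 408 CPM in TL and 352, 364 and 327 CPM in the double knock-out, which overlapped. COL5A1 was at 803, 533 and 735 CPM in TL and 494, 557 and 473 CPM in the double knock-out, also with overlap. The alpha 3 chains, named here after their values were seen, were highest in panx1b-/-: col5a3b was at 604, 432 and 444 CPM there against 345, 326 and 363 CPM in TL (log2 difference 0.52 ± 0.13, edgeR adjusted p = 0.0284, not past both cut-offs).

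Cartilage fibrils are built of type II collagen on a core of type XI, and type II is also the main collagen of the notochord sheath. COL11A2 (ENSDARG00000012422) stood at 338, 272 and 375 CPM in TL, 163, 264 and 287 CPM in panx1a-/-, 214, 238 and 236 CPM in panx1b-/- and 193, 239 and 218 CPM in the double knock-out. The panx1b-/- and double knock-out libraries lay below all TL libraries. It fell in the double knock-out (−0.59 ± 0.12, edgeR adjusted p = 0.00926), and was at −0.51 ± 0.12 in panx1b-/- without passing (edgeR adjusted p = 0.0201). The call in the double knock-out held in 2 of the 6 leave-one-out fits, with an adjusted p of at most 0.0527, and was lost in the fit of all 12 libraries. Neither COL2A1 gene passed in any comparison. COL2A1 (ENSDARG00000069093) stood at 1015, 840 and 1163 CPM in TL, 531, 854 and 913 CPM in panx1a-/-, 811, 980 and 823 CPM in panx1b-/- and 748, 824 and 761 CPM in the double knock-out. The other, COL2A1 (ENSDARG00000011407), stood at 655, 502 and 633 CPM in TL and 624, 499 and 512 CPM in the double knock-out. Of these, only the first lay below TL in the double knock-out without overlap (−0.37 ± 0.12). For col11a1b the double knock-out libraries at 174, 192 and 161 CPM lay below TL at 339, 205 and 318 CPM (−0.70 ± 0.16, edgeR adjusted p = 0.0125, p above the second cut-off). COL11A1 was at 1021, 775 and 1035 CPM in TL and 757, 755 and 710 CPM in the double knock-out (−0.34 ± 0.12).

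Type IX collagen is the FACIT collagen that coats cartilage fibrils, a trimer of alpha 1, alpha 2 and alpha 3 chains. The chain col9a1b (ENSDARG00000031483) stood at 201, 180 and 242 CPM in TL, 84.6, 110 and 125 CPM in panx1a-/-, 87.1, 137 and 215 CPM in panx1b-/- and 104, 174 and 145 CPM in the double knock-out. All panx1a-/- and double knock-out libraries lay below TL, and the panx1b-/- libraries were spread widely. It fell in panx1a-/- (−0.96 ± 0.15, edgeR adjusted p = 0.00231), also with each library left out but not in the fit of all 12 libraries, and was at −0.55 ± 0.17 in the double knock-out without passing (edgeR adjusted p = 0.0482). For col9a3 (ENSDARG00000037845) the levels were 206, 172 and 225 CPM in TL, 94.4, 138 and 135 CPM in panx1a-/-, 165, 196 and 202 CPM in panx1b-/- and 120, 157 and 147 CPM in the double knock-out. It fell in panx1a-/- (−0.71 ± 0.15, edgeR adjusted p = 0.0131), in 3 of the 6 leave-one-out fits. COL9A2 stood at 304, 243 and 330 CPM in TL and 158, 229 and 228 CPM in panx1a-/-, without overlap (−0.51 ± 0.15, edgeR adjusted p = 0.0666). COL9A1, the ohnolog of col9a1b, overlapped with TL in all lines, with 136, 100 and 131 CPM in TL and 82.4, 135 and 106 CPM in panx1a-/-.

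Type X collagen marks hypertrophic cartilage in mammals and is also made by osteoblasts in the zebrafish. COL10A1 (ENSDARG00000054753) stood at 45.3, 47.4 and 67.3 CPM in TL, 22.9, 46.7 and 32.0 CPM in panx1a-/-, 61.7, 66.9 and 43.2 CPM in panx1b-/- and 32.2, 24.9 and 22.3 CPM in the double knock-out. The double knock-out lay below all TL and all panx1b-/- libraries. The fall against TL (−1.01 ± 0.17, edgeR adjusted p = 0.00264) passed with each library left out. Its low-count ohnolog COL10A1 (ENSDARG00000101535) stood at 0.811, 0.702 and 1.26 CPM in TL, 0.328, 0.234 and 0.509 CPM in panx1a-/-, 0.547, 0.490 and 0.349 CPM in panx1b-/- and 0.322, 0.185 and 0.267 CPM in the double knock-out. All mutant libraries lay below all TL libraries, and the fall was regulated in the double knock-out (−1.84 ± 0.39, edgeR adjusted p = 0.00949) in 2 of the 6 leave-one-out fits and not by DESeq2. The type VIII genes, collagens of vessel walls and the cornea, did not pass in any comparison. In the double knock-out, however, COL8A1, COL8A2 and col8a1a each lay below all TL libraries. COL8A1 stood at 4.46, 1.97 and 4.22 CPM in TL and 1.66, 1.90 and 1.20 CPM there. All 5 network collagens, type X included, had an unadjusted edgeR p under 0.05 in that comparison, beside 7994 of 24896 genes tested.

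Over the 12 collagens of the cartilage types (II, IX, X, XI and XXVII), 11 had negative fold changes in panx1a-/- with a median of −0.49 and 2 regulated, 7 in panx1b-/- with a median of −0.14 and none regulated, and 11 in the double knock-out with a median of −0.47 and 3 regulated. Of all genes tested, 2.89, 3.16 and 5.28% fell past both cut-offs in these comparisons. Other cartilage genes did not pass against TL. Of 16 such markers, among them aggrecans and matrilins, none was regulated in any line, and their median log2 fold changes were −0.17, −0.13 and −0.15. The sign was negative for 13, 11 and 13 of the 16 markers, so that most went in the same direction as the cartilage collagens. At an unadjusted p under 0.05 there were 2, 4 and 5 of them, and DESeq2 called none in the single lines and 1 in the double knock-out. Over all genes tested, 5875 of 24987, 6266 of 24860 and 7994 of 24896 had such a p. The 16 markers summed to 605 to 749 CPM in TL and 479 to 667 CPM in panx1a-/-. They summed to 567 to 700 CPM in panx1b-/- and 561 to 615 CPM in the double knock-out. Of 10 osteoblast markers, of which 9 could be tested in panx1a-/- and the double knock-out, none passed against TL by edgeR or DESeq2, with 1, 2 and 1 at an unadjusted p under 0.05, and their summed level overlapped between all lines, at 87.9 to 110 CPM in TL and 97.3 to 112 CPM in the double knock-out.

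The other FACIT collagens of skin, tendon and fascia are types XII and XIV, which bind type I fibrils. The gene col14a1b (ENSDARG00000076623) stood at 162, 151 and 176 CPM in TL, 98.2, 127 and 119 CPM in panx1a-/-, 201, 155 and 196 CPM in panx1b-/- and 126, 105 and 107 CPM in the double knock-out. The panx1a-/- and double knock-out libraries all lay below TL and below panx1b-/-. It was the only collagen regulated against TL in both panx1a-/- (−0.50 ± 0.11, edgeR adjusted p = 0.0169, in 2 of the 6 leave-one-out fits) and the double knock-out (−0.53 ± 0.09, edgeR adjusted p = 0.0041, in 3 of the 6). COL14A1, its ohnolog, was at 36.4, 46.5 and 38.6 CPM in TL and within 37.9 to 44.2 CPM in all mutant libraries. COL12A1 (ENSDARG00000019601) stood at 363, 275 and 351 CPM in TL, 242, 238 and 239 CPM in panx1a-/-, 425, 337 and 358 CPM in panx1b-/- and 279, 241 and 244 CPM in the double knock-out. COL12A1 (ENSDARG00000078322) had another pattern, with 270, 188 and 243 CPM in TL, 265, 204 and 249 CPM in panx1a-/-, 238, 233 and 186 CPM in panx1b-/- and 177, 172 and 161 CPM in the double knock-out. Neither COL12A1 gene passed against TL. The remaining FACIT members, both col19a1 genes (type XIX, which guides motor axons in the zebrafish), col21a1 and col16a1, did not pass in any comparison.

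In basement membranes and their zone, col7a1 rose. Type VII collagen forms the fibrils that anchor the epidermal basement membrane in the dermis. The gene col7a1 (ENSDARG00000021720) stood at 72.3, 60.1 and 70.7 CPM in TL, 63.1, 69.6 and 58.8 CPM in panx1a-/-, 137, 98.6 and 110 CPM in panx1b-/- and 99.5, 94.3 and 86.6 CPM in the double knock-out. Every library that lacks panx1b lay above every library that carries it. It rose in panx1b-/- (0.77 ± 0.12, edgeR adjusted p = 0.00271), where the call held with each library left out, and in the double knock-out (0.47 ± 0.09, edgeR adjusted p = 0.00617), where it held in 3 of the 6 such fits and was lost in the fit of all 12 libraries. The 2 genes with the symbol col7a1l did not pass in any comparison, at 27.6 to 36.3 CPM (ENSDARG00000069692) and 3.56 to 4.87 CPM (ENSDARG00000093135) in TL.

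**Figure D3:**
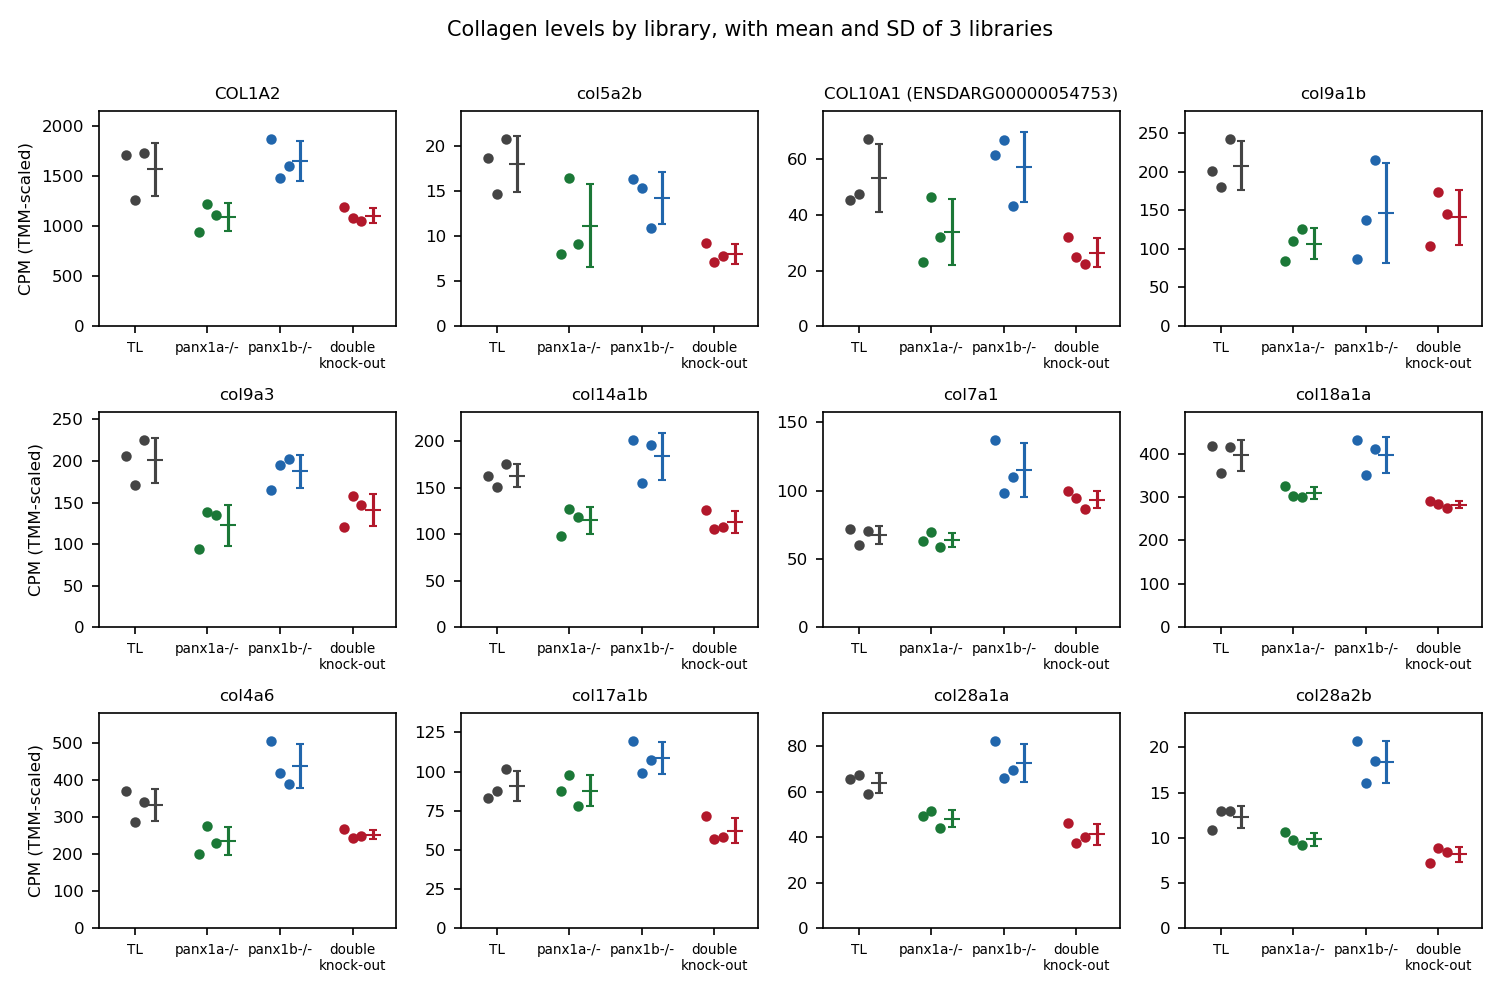
Levels (TMM-scaled CPM, linear axes from 0) of 12 collagen genes in the 12 libraries, by line; points are libraries, bars the mean and SD of 3. col7a1 is higher in both lines that lack panx1b (86.6 to 137 CPM) than in the other 2 (58.8 to 72.3 CPM), while col18a1a, col14a1b and COL1A2 are lower in both lines that lack panx1a.

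Type XVIII collagen carries endostatin, an inhibitor of vessel growth, at its end. col18a1a (ENSDARG00000036558) stood at 418, 355 and 416 CPM in TL, 326, 304 and 299 CPM in panx1a-/-, 431, 351 and 411 CPM in panx1b-/- and 291, 283 and 274 CPM in the double knock-out. The libraries of both lines that lack panx1a lay below all others, and the fall passed in the double knock-out (−0.48 ± 0.09, edgeR adjusted p = 0.00516), in 2 of the 6 leave-one-out fits. In panx1a-/- the difference was −0.35 ± 0.10 (edgeR adjusted p = 0.0526). Its ohnolog col18a1b stood at 18.2, 9.88 and 15.1 CPM in TL and 7.59, 9.96 and 10.3 CPM in panx1a-/-, and at 15.9, 16 and 14.6 CPM in the double knock-out. The related col15a1b was at 58.4, 57.9 and 53.1 CPM in TL and at 62.6, 72.6 and 70.7 CPM in panx1a-/-, with 64.4, 70.1 and 71.1 CPM in the double knock-out, above TL in all 6 libraries (0.28 ± 0.09 in each comparison, without passing).

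No type IV gene passed against TL. In the RefSeq annotation of the GRCz12tu assembly the type IV genes lie in neighbouring pairs, COL4A1 with COL4A2, col4a3 with COL4A4, and col4a5 with col4a6, each pair with 1 long non-coding RNA gene between them. COL4A1, the chain of nearly all basement membranes, stood at 233, 152 and 209 CPM in TL and 172, 176 and 152 CPM in the double knock-out. The means of col4a5 and col4a6 differed from TL in the same direction in each line, but by unequal amounts in the single lines. col4a6 (ENSDARG00000052061) stood at 370, 286 and 342 CPM in TL, 200, 276 and 230 CPM in panx1a-/-, 504, 419 and 391 CPM in panx1b-/- and 267, 243 and 249 CPM in the double knock-out. All panx1b-/- libraries lay above TL and all libraries of the lines lacking panx1a below it. Against TL the differences were −0.50 ± 0.13, 0.40 ± 0.13 and −0.39 ± 0.10, none past both cut-offs (edgeR adjusted p = 0.0423, 0.0643 and 0.0233). For col4a5 the levels were 405, 325 and 404 CPM in TL, 251, 339 and 291 CPM in panx1a-/-, 536, 442 and 382 CPM in panx1b-/- and 321, 279 and 278 CPM in the double knock-out. Both single lines overlapped with TL for this gene, and the double knock-out lay below TL.

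Among transmembrane collagens, type XVII sits in the hemidesmosomes of basal keratinocytes. col17a1b (ENSDARG00000079011) stood at 83.2, 87.7 and 102 CPM in TL, 87.4, 98.0 and 78.3 CPM in panx1a-/-, 119, 99.3 and 108 CPM in panx1b-/- and 71.8, 56.9 and 58.5 CPM in the double knock-out. The double knock-out lay below all other libraries, and both single lines overlapped with TL. It fell against TL (−0.54 ± 0.11, edgeR adjusted p = 0.00754), in 3 of the 6 leave-one-out fits. Its ohnolog col17a1a was at 880, 725 and 914 CPM in TL and 881, 665 and 700 CPM in the double knock-out, and did not pass in any comparison.

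Beaded-filament collagens of type VI surround muscle fibres and fibroblasts, and type XXVIII is a related type found at peripheral nerves in the mouse. No type VI gene passed in any comparison: COL6A3, for example, stood at 126, 82.1 and 113 CPM in TL and 77.4, 84.2 and 76.9 CPM in the double knock-out. col28a1a (ENSDARG00000077084) stood at 65.4, 67.3 and 58.9 CPM in TL, 49.2, 51.4 and 44.1 CPM in panx1a-/-, 82.1, 66.0 and 69.6 CPM in panx1b-/- and 46.2, 37.6 and 40.0 CPM in the double knock-out. Both lines lacking panx1a lay below TL, and the gene fell in the double knock-out (−0.63 ± 0.10, edgeR adjusted p = 0.00217) with each library left out in turn. col28a2b (ENSDARG00000100781) stood at 10.9, 13 and 13 CPM in TL, 10.6, 9.76 and 9.16 CPM in panx1a-/-, 20.7, 16 and 18.5 CPM in panx1b-/- and 7.23, 8.90 and 8.41 CPM in the double knock-out. The panx1b-/- libraries were the highest of all and the double knock-out libraries the lowest. It rose in panx1b-/- (0.59 ± 0.13, edgeR adjusted p = 0.0159), which held in 1 of the 6 leave-one-out fits and was lost with DESeq2's size factors, library size alone or a minimum of 10 counts.

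The most collagen calls came from the double knock-out against panx1b-/-. There, 14 of the 57 collagens fell and none rose, at 5.48% and 3.84% of all genes tested. On the rising side 1 collagen had an unadjusted p under 0.05, and DESeq2 called 1. In either direction, 29 of the 57 collagens and 7906 of 24808 genes tested had a p under 0.05. The median log2 fold change was −0.27 with 48 of 57 negative, beside 0.01 over all genes. The 14 covered all classes: col28a2b (−1.16 ± 0.13, edgeR adjusted p = 0.000107), COL10A1 (ENSDARG00000054753) (−1.11 ± 0.16), col5a2b (−0.82 ± 0.16), col28a1a (−0.81 ± 0.11), col17a1b (−0.80 ± 0.11), col4a6 (−0.79 ± 0.11), col28a2a (−0.79 ± 0.13), col14a1b (−0.70 ± 0.12), col1a1a (−0.66 ± 0.14), col4a5 (−0.63 ± 0.13), col5a3a (−0.62 ± 0.12), COL1A2 (−0.57 ± 0.13), COL12A1 (ENSDARG00000019601) (−0.55 ± 0.11) and col18a1a (−0.49 ± 0.11). Of these, col28a2a and col5a3a are named after their values were seen. The libraries did not overlap between the lines for any of the 14, which their selection on the same libraries makes likely. With each library left out, 7 of the 14 passed. COL1A2 and col5a2b did not pass in the fit of all 12 libraries, and COL1A2 also not with DESeq2's size factors or a minimum of 10 counts. The count was 7 without panx1b-/- replicate 1, without double knock-out replicate 2 and without double knock-out replicate 3.

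Of the 17 collagens of the skin and fin types (I, V, VII, XII, XIV and XVII), 7 fell in the double knock-out against panx1b-/-, with a median of −0.48 and 16 of 17 negative. The same 17 had a median of 0.17 in panx1b-/- against TL, where 12 were positive and 1 rose. Markers of the fin fold and of the epidermis differed between the lines too, and not in the same order. The 6 fin fold markers summed to 797 to 876 CPM in TL, 739 to 797 CPM in panx1a-/-, 941 to 1043 CPM in panx1b-/- and 666 to 722 CPM in the double knock-out, in non-overlapping ranges for the last 2 and TL. Of the actinodins, which build the fin rods, and2 rose in panx1b-/- (0.60 ± 0.10, edgeR adjusted p = 0.0033), and1 (−0.46 ± 0.10) and the basement membrane gene fras1 (−0.42 ± 0.09) fell in the double knock-out against TL, and and1, and2 and and3 fell against panx1b-/- (−0.70, −0.60 and −0.42). The 11 epidermal markers summed to 11236 to 13091 CPM in TL, 11976 to 15823 CPM in panx1a-/-, 15832 to 21582 CPM in panx1b-/- and 13547 to 18282 CPM in the double knock-out. Of these, PPL rose in panx1a-/- (0.68 ± 0.11) and agr1 (0.72 ± 0.13) and cyt1 (1.37 ± 0.19) rose in panx1b-/-. None passed in the double knock-out against TL, where 3 had an unadjusted p under 0.05 and DESeq2 called 2. Over all genes tested, 7994 of 24896 had such a p there. The epidermal sum of the double knock-out thus lay above TL, although by sign 5 of the 11 markers were positive and 6 negative (median −0.01). Its fin fold sum lay below TL, as did 14 of the 17 collagens by sign. In the double knock-out against panx1b-/-, 9 of the 11 epidermal markers were negative and 2 positive (median −0.38). There 1 of them fell past both cut-offs, beside 5.48% of all genes tested. The part of these markers in the collagen differences was not tested.

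Fewer calls came from the double knock-out against panx1a-/-. There, 2 collagens rose and 3 fell, at 2.58% and 3.76% of all genes, with a median of −0.09. col7a1 rose (0.55 ± 0.09, edgeR adjusted p = 0.00224) and col18a1b rose (0.74 ± 0.13, edgeR adjusted p = 0.00251), both with each library left out, although col18a1b did not pass in the fit of all 12 libraries, nor did COL12A1 (ENSDARG00000078322) and col23a1a. Those that fell were col17a1b (−0.49 ± 0.11), COL12A1 (ENSDARG00000078322) (−0.49 ± 0.11) and col23a1a (−0.39 ± 0.08), the last a transmembrane collagen named after its values were seen. None of the 3 calls held in more than 2 of the 6 leave-one-out fits. All 3 were lost without panx1a-/- replicate 1, without double knock-out replicate 2 and without double knock-out replicate 3. The count was 1 without panx1a-/- replicate 2 or replicate 3.

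The interaction of the genotypes asked whether the double knock-out departed from the sum of both single knock-outs on the log2 scale. It was positive for no collagen and negative for 2, at 2.56% and 2.76% of all genes. No collagen was positive by DESeq2 either, and 3 were positive at an unadjusted p under 0.05. In either direction, 8 of the 57 collagens and 5639 of 24261 genes tested had such a p. The collagen median was −0.06 with 35 of 57 negative. The 2 genes were col28a2b (−0.84 ± 0.18, edgeR adjusted p = 0.00685) and col17a1b (−0.75 ± 0.16, edgeR adjusted p = 0.00896), both lower in the double knock-out than the single lines would add up to. col28a2b passed in 11 of the 12 leave-one-out fits, all but that without panx1a-/- replicate 1. col17a1b passed in 7 of 12, and not without TL replicate 1, panx1a-/- replicate 2, panx1b-/- replicate 1, double knock-out replicate 2 or double knock-out replicate 3. The interaction was negative for 16 of the 17 skin and fin collagens (median −0.20, 1 regulated) and positive for 9 of the 12 cartilage collagens (median 0.20, none regulated). It was also negative for all 11 epidermal markers (median −0.59, 3 regulated) and all 6 fin fold markers (median −0.22, 1 regulated). Without TL replicate 2 or panx1b-/- replicate 3, 1 collagen was positive.

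Chains of the same collagen type, ohnologs included, can be compared within a library, where the total of collagen cancels. These ratios were picked after values were seen and are given without a test. The counts of COL1A2 relative to summed col1a1a and COL1A1 were 0.5004, 0.431 and 0.461 in TL, 0.396, 0.402 and 0.369 in panx1a-/-, 0.382, 0.393 and 0.401 in panx1b-/- and 0.402, 0.397 and 0.383 in the double knock-out. All 9 mutant libraries lay below all 3 TL libraries, including TL replicate 2. COL4A2 relative to COL4A1 was 0.642, 0.636 and 0.649 in TL and 0.523 to 0.603 in the mutant libraries, again without overlap. The ratio of col4a6 to col4a5 separated the single lines instead, with 0.941 to 1.02 in panx1b-/-, 0.847 to 0.912 in TL, 0.831 to 0.896 in the double knock-out and 0.790 to 0.814 in panx1a-/-. The ratio of COL1A1 to col1a1a was 0.709 to 0.914 in TL, 0.802 to 0.891 in panx1a-/-, 0.715 to 0.802 in panx1b-/- and 0.845 to 0.936 in the double knock-out, and overlapped with TL in each line. The ratio of col6a1 to COL6A2 was 0.895 to 0.975 in TL and overlapped with TL in panx1b-/- (0.848 to 0.902) and the double knock-out (0.902 to 0.947), but not in panx1a-/- (0.878 to 0.887). The ratio of COL4A4 to col4a3 overlapped between all lines, with line means of 0.551 to 0.561. Of the type IX alpha 1 chains, col9a1b relative to COL9A1 was 1.48, 1.79 and 1.84 in TL and 1.03, 0.816 and 1.18 in panx1a-/-, and in panx1b-/- it spread from 0.649 to 2.29. A ratio shows only that the chains differed unequally, not which of them changed.

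**Figure D4:**
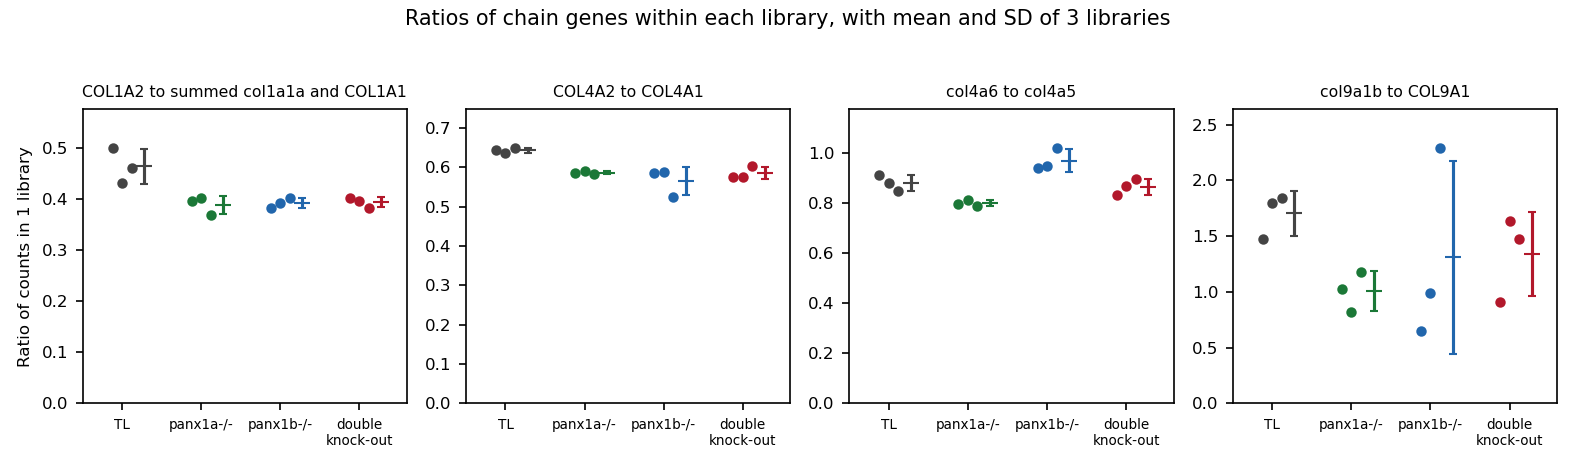
Ratios of counts between chain genes of 1 collagen type within each library (no unit, axes from 0), by line; points are libraries, bars the mean and SD of 3. The ratio of COL1A2 to summed col1a1a and COL1A1 is 0.431 to 0.5004 in TL and 0.369 to 0.402 in the 9 mutant libraries, and col9a1b to COL9A1 spreads widely in panx1b-/-.

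Genes that modify, export, cross-link, bind or cleave collagen were counted in the same fits. Their calls were not followed with libraries left out. Of 74 such genes, 5 rose and 1 fell in panx1a-/-, beside 2.29% and 2.89% of all genes. In panx1b-/- 2 rose and 2 fell, beside 2.8% and 3.16%, and in the double knock-out 3 rose and 7 fell, beside 2.81% and 5.28%. The fold change was negative for 32, 45 and 54 of the 74, with medians of 0.05, −0.06 and −0.17. In the double knock-out the collagen chaperone SERPINH1 (ENSDARG00000075954) fell (−0.68 ± 0.11, edgeR adjusted p = 0.00291), as did the lysyl hydroxylase PLOD2 (−0.59 ± 0.09), the cross-linking oxidase loxl2a (−0.95 ± 0.12), PCOLCE2 (ENSDARG00000055575), an enhancer of procollagen cleavage (−0.80 ± 0.13), and 1 fibronectin gene FN1 (−0.45 ± 0.08). The other gene with the symbol FN1 did not pass there. The collagenase mmp13a (−2.49 ± 0.43) and the gelatinase MMP9 (−3.34 ± 0.70) also fell. The 6 collagenases and gelatinases of the list summed to 230, 164 and 339 CPM in TL. In the double knock-out they summed to 174, 163 and 143 CPM, which overlapped with TL. The prolyl hydroxylase subunit P4HA3 rose (1.64 ± 0.26), as did the oxidase LOXL4 (ENSDARG00000025089) (0.49 ± 0.11) and the collagen receptor of chondrocytes ITGA10 (1.35 ± 0.12, edgeR adjusted p = 6.5e-05). In panx1a-/- the genes that rose were P4HA3 (1.41 ± 0.27), LOXL4 (ENSDARG00000025089) (1.17 ± 0.10), pcolcea (0.46 ± 0.10), ITGA10 (0.99 ± 0.13) and the collagen receptor ITGA2 (1.01 ± 0.15), and PLOD3 fell (−0.67 ± 0.13). In panx1b-/- the matrix protein POSTN (ENSDARG00000043806) rose (0.52 ± 0.11) with ITGA2 (0.60 ± 0.13), and loxl2a (−0.98 ± 0.13) and PCOLCE2 (ENSDARG00000008450) (−1.26 ± 0.28) fell.

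Between the knock-out lines, 1 of the 74 rose and 11 fell in the double knock-out against panx1a-/-, beside 2.58% and 3.76% of all genes, with 54 of the 74 negative and a median of −0.16. loxl2a (−1.23 ± 0.10, edgeR adjusted p = 1.29e-05), mmp13a (−1.82 ± 0.27) and both SERPINH1 genes (−0.52 and −0.48) were among those that fell. Against panx1b-/- 6 rose and 4 fell, beside 3.84% and 5.48% of all genes, with 46 negative and a median of −0.10. Both POSTN genes fell there (−0.71 each), and ITGA10 (1.32 ± 0.10) and P4HA3 (2.37 ± 0.30) rose. The markers of tendon, notochord, muscle, neurons and liver held few calls against TL. Of the 8 tendon markers, 1 gene with the symbol THBS4 fell in panx1b-/- (−0.65 ± 0.13), and the other THBS4 gene did not pass. ACTC1 of the 8 muscle markers (−0.97 ± 0.16) and apoa1a of the 7 liver and gut markers (−0.63 ± 0.14) fell in the double knock-out, and both CEL genes of the latter list rose in panx1b-/- (1.08 ± 0.21 and 0.91 ± 0.20). None of the 5 notochord or 10 neuronal markers passed against TL by edgeR or DESeq2. At an unadjusted p under 0.05 there were 2 and 0 in panx1a-/- and 0 and 0 in panx1b-/-. In the double knock-out there were 1 and 3. Over all genes tested, 5875 of 24987, 6266 of 24860 and 7994 of 24896 had such a p in the 3 comparisons.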

How the data were processed

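Pools of whole 6 dpf larvae of TL controls, panx1a-/-, panx1b-/- and the double knock-out gave 3 libraries each. The authors deposited raw counts per Ensembl gene and library, without normalization or pooling. The submitters' processing notes list the build danRer11, bcl2fastq 2.17, FastQC 0.11.2, Trim Galore 0.4.4, TopHat2 2.0.11 and HTSeq 0.6.1p2, while the paper describes RSEM with bowtie2. The strand setting of the counting is not given in the sources used here, and reads from near-identical ohnologs may have been assigned to either. Such pools measure the spread between pools of the same line, which may be technical in part.

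Differences were tested with edgeR 4.0.16 in R 4.3.3 (glmQLFit and glmQLFTest after TMM normalization) on the genes counted at least 1 time in each library of the fit. A fit held the lines compared and no others, and the interaction held all 12 libraries. A gene was called regulated if its Benjamini-Hochberg adjusted p-value was under 0.05 and its p-value under 0.001, the cut-offs of the study. The SE of a fold change came from its F statistic, and CPM values are TMM-scaled. For single genes, overlap of libraries between lines was read for collagens alone, so no share over all genes stands beside it. The procedure was tested on simulated counts in which genes varied independently. That setting does not cover genes that move together between libraries, as the collagens did here. With 3 against 3 libraries, the test leans on the spread estimated across genes.

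The collagens, the lists of 74 assembly genes and of tissue markers and the named genes were chosen with earlier results of these data known. Named were collagens regulated against TL and, whatever their result, the genes of types I, II, IX to XII, XV, XVII and XVIII, the alpha 1, 2, 5 and 6 chains of type IV, alpha 1 and 2 of type V, alpha 1 to 3 of type VI, and col7a1. Other names were chosen after their values were seen. Levels were not compared between genes because transcript lengths were not used here. Results were recomputed with other scalings (DESeq2's size factors, or no factor beyond library size), with DESeq2 1.42.0, with other filters (no minimum, filterByExpr, a minimum of 10 counts), without the second cut-off, with the replicate number as a block, from a joint fit of the 12 libraries, and after leaving out each library. Plots were made in Python 3.11.15 with matplotlib 3.10.9.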

Additional observations from a re-analysis of the deposited data

Results flagged for a closer look

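For 2 of the 57 collagens the difference between lines with and without panx1b was unlike in the presence and absence of panx1a. This was read from the interaction term of edgeR's quasi-likelihood fit over all 12 libraries. The term was negative for both and positive for no collagen, beside 2.76% and 2.56% of all genes tested. In either direction, 8 of the 57 collagens and 5639 of 24261 genes tested had an unadjusted p under 0.05 in this fit. Each genotype is a single line, so genotype and line background cannot be told apart. For col17a1b the interaction was −0.75 ± 0.16 (SE, log2 scale, edgeR adjusted p = 0.00896): the difference from TL was 0.26 in panx1b-/-, −0.05 in panx1a-/- and −0.54 in the double knock-out. For col28a2b it was −0.84 ± 0.18 (edgeR adjusted p = 0.00685), from 0.59 in panx1b-/-, −0.32 in panx1a-/- and −0.59 in the double knock-out. Groups of 3 libraries are too small for a check on outlying libraries within a line. With each library left out in turn, col17a1b passed in 7 of the 12 fits and col28a2b in 11 of the 12.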

How the results depend on the processing

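Counts of regulated collagens changed with the libraries and with the settings. The shares of all genes called in these alternative fits are not given here, so these counts cannot be set against a background. With a library left out, collagens that fell against TL numbered 1 to 10 in panx1a-/- (3 with all libraries), 0 to 3 in panx1b-/- (0) and 3 to 30 in the double knock-out (8), and those that rose 1 to 2 in panx1b-/- (2) and 0 to 1 in the double knock-out (1). Against panx1a-/- 0 to 3 fell (3), and against panx1b-/- 7 to 14 fell (14) and 0 to 1 rose (0). The interaction was positive for 0 to 1 (0) and negative for 1 to 2 (2). For the falls against TL in panx1a-/-, panx1b-/- and the double knock-out, DESeq2 gave 9, 3 and 15 and the adjusted p alone 7, 3 and 24; without a minimum count there were 5 in panx1a-/- and 3 in panx1b-/-, with library size alone 1 in panx1b-/-, and with all 12 libraries in one fit 2 in panx1b-/-. DESeq2's size factors, library size alone and at least 10 counts each left 1 of the 2 rises in panx1b-/-. In the double knock-out the adjusted p alone gave 2 rises and the fit of all 12 libraries 0. Against panx1a-/- DESeq2, no minimum count and the adjusted p alone each gave 6 falls, and the fit of all 12 libraries 1 fall and 1 rise. Against panx1b-/- 1 gene rose under size factors, DESeq2, no minimum count, the adjusted p alone and the fit of all 12 libraries. The cause was not tested. The collagen median kept its sign in all alternatives for panx1a-/- (−0.35 to −0.17), the double knock-out against TL (−0.47 to −0.31), against panx1a-/- (−0.14 to −0.03) and against panx1b-/- (−0.32 to −0.21), but not for panx1b-/- (−0.12 to 0.02) or the interaction (−0.13 to 0.02).

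The replicate numbers of the labels were not taken to pair the libraries. Deviations from the line means correlated at −0.17 to 0.30 between same-numbered libraries over 21110 genes. In no comparison did every pair exceed 0.1. Between the double knock-out and panx1b-/-, replicates 1 and 3 reached 0.30 and 0.22, and replicate 2 was at −0.04. Pairing in part was not tested. With the replicate block, 1 rose and 2 fell in panx1b-/-, 2 fell in panx1a-/-, 11 fell in the double knock-out, 1 fell against panx1a-/- and 1 rose and 17 fell against panx1b-/-. For the block, too, the shares of all genes called are not given here. The calls absent with the block were col14a1b in panx1a-/-, col28a2b in panx1b-/-, and COL12A1 (ENSDARG00000078322) and col23a1a against panx1a-/-.

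Over all alternatives for single named collagens, left-out libraries included, 1432 values kept their sign and side of the cut-offs, 42 lost and 65 gained the call, and 33 turned their sign, none of which passed. With a library left out, panx1a-/- against TL ranged over −0.10 to 0.15 for COL12A1 (ENSDARG00000078322), −0.13 to 0.041 for col17a1b, −0.19 to 0.10 for COL4A1 and −0.022 to 0.21 for COL5A2. In panx1b-/- it ranged over −0.056 to 0.15 for COL1A2, −0.020 to 0.30 for COL10A1 (ENSDARG00000054753), −0.089 to 0.10 for COL11A1, −0.22 to 0.020 for COL12A1 (ENSDARG00000078322), −0.064 to 0.10 for col18a1a, −0.058 to 0.36 for col18a1b, −0.084 to 0.14 for COL2A1 (ENSDARG00000011407) and −0.12 to 0.15 for COL9A1. In the double knock-out it was −0.083 to 0.30 for col18a1b. In panx1b-/- col18a1a was also at −0.0019 without a minimum count, and COL9A1, at 0.002, was at −0.010 with DESeq2's size factors, −0.0098 with DESeq2, −0.012 without a minimum count, −0.0083 with the replicate block and −0.0079 with all 12 libraries in one fit. Counting error was largest for COL10A1 (ENSDARG00000101535), with 4 to 35 counts per library.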
